A study of Homo sapiens with 6 samples.

Results

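The genes described here were abundant under the control shRNA and all but undetected after knockdown of VprBP. A protein-coding row of the deposited gene table was taken when its rounded value was at most 3 in each of the 3 VprBP sh samples and when it averaged at least 20 CPM (counts scaled to a column total of 1000000) over the 3 Control sh samples. The rule held for 151 of 15325 protein-coding rows, in a table of 21494 rows. Of the 7684 protein-coding genes that reached this control level, these made up 1.97%. Both the control level and the near absence after knockdown were used to choose the genes, so the drop itself is described below without a test.

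RNA was sequenced from human cells labelled as the melanoma line G361, with 3 samples that carried a control shRNA and the label WT (Control sh) and 3 that carried an shRNA against DCAF1, the gene of VprBP, and the label DCAF1 Knockdown (VprBP sh). VprBP is a substrate receptor of a ubiquitin ligase that has also been described as a histone kinase, and the comparison asked which transcripts depend on it. According to the methods, 1 shRNA delivered in the lentiviral vector pLKO.1 was used and the infected cells were selected with puromycin, so every VprBP sh sample shares that shRNA. Nothing in the labels says that the replicates came from separate cultures, and p-values therefore measure the spread between these samples, which may be technical.

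The labels do not describe the cells in a single way, because the source field names LD611 while the cell line field names G361. Of 8 melanocyte-lineage markers, 4 were analysed here. MITF, the melanocyte master regulator, had 162, 154 and 170 counts in Control sh against 238, 197 and 312 in VprBP sh, and PMEL, MLANA and TYRP1 had at most 46 counts in any sample. The 4 markers together reached 8.46 to 9.85 CPM in Control sh against 11.9 to 15.2 in VprBP sh, so the melanocyte identity in the label was hardly seen in either group. DCAF1 itself had 688, 893 and 884 counts in Control sh against 681, 488 and 628 in VprBP sh, that is 36.7 ± 4.1 against 28.5 ± 7.7 CPM (SD, n = 3). Its log2 fold change was -0.58 (SE 0.17, adjusted p = 0.0125, edgeR's quasi-likelihood test with Benjamini-Hochberg adjustment), and with scaling by library size alone it was -0.37 with an adjusted p of 0.0851. For the targeted gene the groups overlapped in CPM, since VprBP sh replicate 1 (37.4) lay above Control sh replicates 1 and 3 (33.2 and 35.6). Total counts ran from 18195926 to 26883925 per sample. Replicate 1 of each group stood apart from replicates 2 and 3, with a chi-square per degree of freedom of 17.6 to 29.1 against replicate 1 and of 2.36 to 2.50 between replicates 2 and 3.

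Many of the 151 genes encode proteins that are secreted, sit at the cell surface or shape the contact of a cell with its matrix. Basal epithelial cells hold on to the basement membrane through hemidesmosomes and to each other through desmosomes, and they secrete matrix proteins, proteases and the serpins and cystatins that hold those proteases in check. Many such genes are transcribed only in certain cell types, and a gene can be shut off for good when its promoter is packed into inactive chromatin or when the CpG dinucleotides of that promoter become methylated.

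The promoters are shown first because the starts of these genes differ widely in CpG content. Of the 151 genes, 101 matched the RefSeq promoter table (GRCh38.p14, 250 bases before to 50 bases after a start). Among the 25 most abundant genes, 12 had such a promoter once 1 chromosome was left out of the choice. Of these 12, the 3 with the highest and the 3 with the lowest ratio of observed to expected CpG are printed. They are therefore not the extremes of all 25. Each is given 5′ to 3′ on the strand of the gene, with each CpG in capitals. The CpG-rich starts were those of the neural adhesion gene CNTN5 (chr11:99020699-99020998, + strand), the fibrillar collagen gene COL5A1 (chr9:134641553-134641852, + strand) and the membrane scaffold gene BASP1 (chr5:17216573-17216872, + strand), whose RefSeq start lies inside the gene as the deposited table gives it. The CpG-poor starts were those of the hemidesmosome gene COL17A1 (chr10:104085831-104086130, - strand), the cytokine gene IL1B (chr2:112836730-112837029, - strand) and the receptor tyrosine kinase gene AXL (chr19:41218973-41219272, + strand).
CNTN5: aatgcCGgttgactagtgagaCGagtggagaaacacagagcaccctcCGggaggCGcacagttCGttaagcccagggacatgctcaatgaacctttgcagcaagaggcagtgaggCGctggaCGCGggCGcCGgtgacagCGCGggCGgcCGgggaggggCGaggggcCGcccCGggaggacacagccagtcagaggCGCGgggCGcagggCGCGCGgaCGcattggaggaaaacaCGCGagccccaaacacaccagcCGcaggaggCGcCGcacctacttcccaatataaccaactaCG
COL5A1: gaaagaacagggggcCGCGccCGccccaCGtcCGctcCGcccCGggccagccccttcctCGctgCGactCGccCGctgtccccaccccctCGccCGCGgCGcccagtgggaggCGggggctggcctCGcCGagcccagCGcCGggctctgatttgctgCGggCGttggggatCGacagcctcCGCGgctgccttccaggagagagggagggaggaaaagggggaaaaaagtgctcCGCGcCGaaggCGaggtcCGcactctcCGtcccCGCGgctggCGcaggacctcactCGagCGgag
BASP1: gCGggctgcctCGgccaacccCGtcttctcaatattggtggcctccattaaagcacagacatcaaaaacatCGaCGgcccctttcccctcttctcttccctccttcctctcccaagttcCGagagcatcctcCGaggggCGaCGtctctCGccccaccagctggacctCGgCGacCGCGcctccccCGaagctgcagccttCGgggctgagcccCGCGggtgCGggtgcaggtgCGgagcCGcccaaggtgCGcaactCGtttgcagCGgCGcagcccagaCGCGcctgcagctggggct
COL17A1: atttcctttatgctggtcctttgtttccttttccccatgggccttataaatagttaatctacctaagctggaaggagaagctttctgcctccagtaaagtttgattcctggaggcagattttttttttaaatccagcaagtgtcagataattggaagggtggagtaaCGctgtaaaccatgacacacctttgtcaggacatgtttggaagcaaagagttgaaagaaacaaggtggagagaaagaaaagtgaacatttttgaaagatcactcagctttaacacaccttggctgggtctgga
IL1B: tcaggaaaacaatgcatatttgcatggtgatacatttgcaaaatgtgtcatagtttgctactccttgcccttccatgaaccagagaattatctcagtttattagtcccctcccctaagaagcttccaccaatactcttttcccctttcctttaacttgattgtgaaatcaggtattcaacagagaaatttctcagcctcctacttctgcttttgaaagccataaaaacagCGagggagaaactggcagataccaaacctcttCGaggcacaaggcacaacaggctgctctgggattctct
AXL: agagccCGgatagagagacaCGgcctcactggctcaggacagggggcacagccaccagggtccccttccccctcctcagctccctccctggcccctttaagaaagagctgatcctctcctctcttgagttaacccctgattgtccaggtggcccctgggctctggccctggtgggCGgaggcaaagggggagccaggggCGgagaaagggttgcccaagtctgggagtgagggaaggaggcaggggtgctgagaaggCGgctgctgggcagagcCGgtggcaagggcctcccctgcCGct
The capitals number 30 CpGs in CNTN5, 36 in COL5A1 and 27 in BASP1, against 1 in COL17A1, 2 in IL1B and 7 in AXL. The ratio of observed to expected CpG ran from 0.93 in CNTN5 down to 0.08 in COL17A1, and all 6 genes had no more than 3 counts in any VprBP sh sample.

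Across the samples the 151 genes took 384130, 377651 and 429475 counts in Control sh, which was 1.85%, 1.74% and 1.73% of the library. In VprBP sh they took 52, 34 and 62 counts in all, or 2.86, 1.72 and 2.31 CPM. Every gene was counted in every Control sh sample, whereas 30, 23 and 32 of them had any count in the 3 VprBP sh samples. In bulk RNA, fewer cells that express a gene and less RNA of it per cell cannot be told apart. A count of 0 allows up to 3 counts, which was 0.112 to 0.165 CPM in the VprBP sh libraries and covers counting error only.

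A count of 0 in all 3 VprBP sh samples was found for 100 genes. The other 51 had at least 1 count in some VprBP sh sample, with a largest value of 1 for 17 genes, 2 for 20 and 3 for 14. A count in every VprBP sh sample was found for 7 genes, among them SLC7A2, TMEM98, COL17A1, SNCG, PEAR1 and TGM2. For the 100 genes at 0, the control level was at least 143-fold to at least 4404-fold above the level of 3 counts per library, with a median of at least 366-fold. All 151 genes were tested and called lower, beside 22% of the 16756 genes tested that were called lower and 24.5% called higher, but nothing is read from this because the same contrast chose the genes. A call needed an adjusted p under 0.05 and a fold change over 2 in edgeR's quasi-likelihood test.

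**Figure D1:**
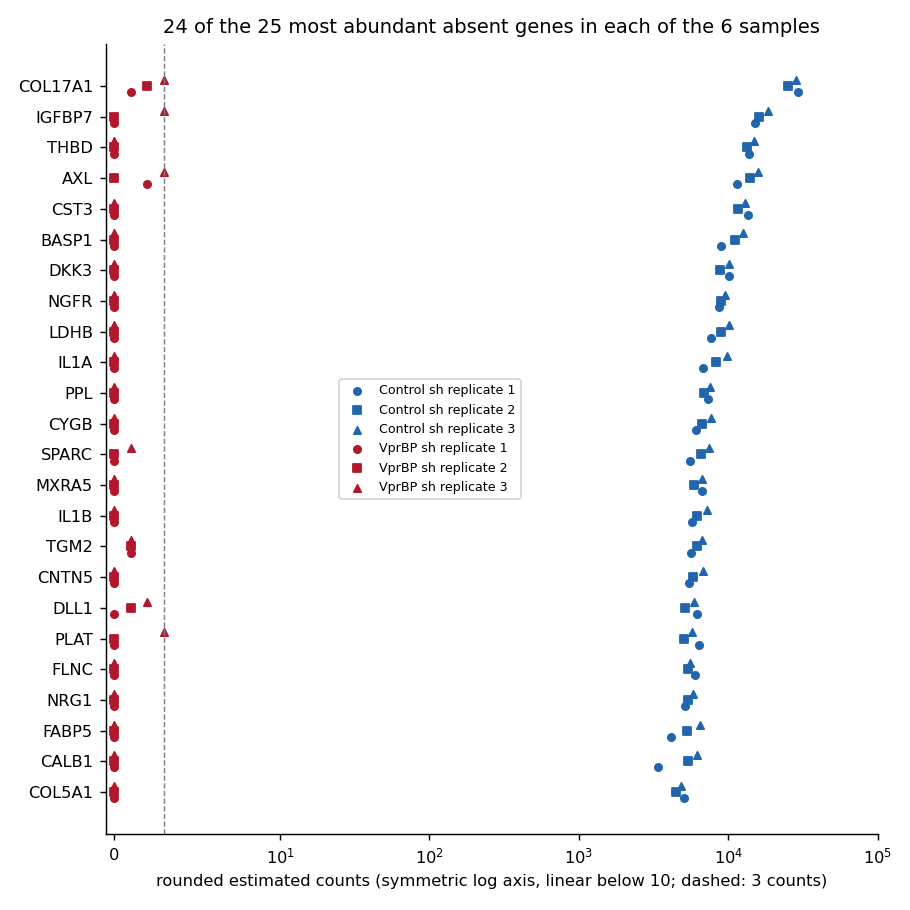
Rounded estimated counts (x axis, symmetric log scale, linear below 10) of 24 of the 25 most abundant of the 151 genes (y axis) in each sample, with 1 symbol per replicate, Control sh in blue and VprBP sh in red. The Control sh counts run from 3375 (CALB1) to 29204 (COL17A1), and every VprBP sh count lies at or left of the dashed line at 3.

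Control levels ranged from 20.3 to 1238 CPM with a median of 53.3, and 41 genes exceeded 100 CPM. Per kb of exon, high control levels were those of IGFBP7 with 382 CPM per kb, BASP1 with 225, IL1A with 183 and COL17A1 with 177. IGFBP7 ranked 60th and COL17A1 158th among all protein-coding genes on this scale, which corrects for transcript length. The median coefficient of variation over the 3 Control sh samples was 8.55%, and that of the other 7533 protein-coding genes at the same control level was 6.84%.

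The thresholds of the rule cut through a continuous range of genes. Just inside the control threshold lay MAMDC2 with 20.3, NHSL2 with 20.4 and TMEM255A with 20.4 CPM, and just under it CDH5 with 19.96, EVC with 19.6 and SH2D5 with 19.3. IGFBP6 (4, 3 and 3 counts in VprBP sh, 207 CPM in Control sh), IFI27 (2, 4 and 2, 106 CPM) and the translation factor gene EIF4G3 (3, 4 and 2, 81.0 CPM) missed the other threshold by 1 count. In all, 9 protein-coding genes at the control level had a largest VprBP sh value of 4 and 46 one of 4 to 10.

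The extracellular matrix was the role of 18 of the genes. COL17A1, the transmembrane collagen that anchors basal epithelial cells to the basement membrane, had 29204, 25132 and 28462 counts in Control sh against 1, 2 and 3 in VprBP sh. It was the highest of the 151 in CPM, at 1238 ± 149, and the ratio of the pooled levels was 13296 (95% exact counting interval 6109 to 36232). IGFBP7, a secreted binding protein of growth factors, had 15145, 16148 and 18328 counts against 0, 0 and 3. SPARC, a collagen-binding matricellular protein, had 5584, 6526 and 7458 against 0, 0 and 1. The groups did not overlap for any of the 3 genes, as the rule required. Further members were the collagens COL5A1, COL27A1, COL8A1 and COL6A1, the matrix proteins MXRA5, FBN2, NID1, LAMA1 and VCAN, the crosslinking enzyme LOXL4 and the protease MMP7, with control means between 29.4 and 287 CPM.

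Protease inhibitors and regulators of coagulation numbered 10 and had the highest median control level of all role groups per kb of exon, 51.0 CPM per kb. PLAT, tissue plasminogen activator, had 6343, 5042 and 5721 counts in Control sh against 0, 0 and 3 in VprBP sh. THBD, the thrombin receptor that turns thrombin towards anticoagulation, had 13877, 13410 and 14900 against 0, 0 and 0, and with a control level at least 4404-fold above 3 counts per library it had the highest CPM of the genes with no count in any VprBP sh sample. CST3, a secreted inhibitor of cathepsins, had 13553, 11686 and 12901 counts against 0, 0 and 0. The intracellular serpins SERPINB2, SERPINB3, SERPINB4, SERPINB7 and SERPINB13 and the inhibitor TFPI2 belonged to the same group, with at most 2 counts in any VprBP sh sample. SERPINB3 and SERPINB4 share 91.8% of their residues, so reads may have been split between them and their separate levels are uncertain.

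Of 18 receptors and other surface proteins, AXL, a receptor tyrosine kinase of invasive cells, had 11532, 13923 and 15916 counts in Control sh against 2, 0 and 3 in VprBP sh. NGFR, the low-affinity neurotrophin receptor, had 8704, 8913 and 9451 against 0, 0 and 0. CNTN5, a contactin otherwise known from neurons, had 5483, 5775 and 6763 against 0, 0 and 0. PDPN, a mucin-like membrane protein, and the contactin CNTN1 were also at 0 in each VprBP sh sample, with 139 and 67.4 CPM in Control sh. The remaining receptors and surface proteins, among them the bradykinin receptor BDKRB2, the decoy receptors TNFRSF10D and IL13RA2, the cadherin CDH13, the collagen-binding integrin ITGA1 and the interleukin 7 receptor IL7R, lay between 26.9 and 79.8 CPM in Control sh.

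The 14 secreted signals included both interleukin 1 genes. IL1A had 6827, 8312 and 9847 counts in Control sh and IL1B had 5739, 6176 and 7244, and both had 0 in each VprBP sh sample. DKK3, a secreted relative of WNT antagonists, had 10132, 8854 and 10076 counts against 0, 0 and 0. The Notch ligand DLL1 had 6220, 5114 and 5925 counts against 0, 1 and 2. NRG1, a ligand of ERBB receptors, and the lower WNT7A, VEGFC, SLIT2 and CCBE1 were at 0 in each VprBP sh sample, and GDF15, APLN, IL32 and PTHLH had at most 3 counts there.

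Enzymes and lipid carriers made up 17 genes, 10 of them at 0 in every VprBP sh sample. LDHB, the lactate dehydrogenase subunit of aerobic tissues, had 7613, 9018 and 10093 counts in Control sh against none in VprBP sh. CYGB, the globin cytoglobin, had 6113, 6721 and 7726 against 0, 0 and 0. TGM2, tissue transglutaminase, had 5649, 6164 and 6650 against 1, 1 and 1. The lysosomal galactocerebrosidase gene GALC, the vitamin D catabolic gene CYP24A1, the branched-chain aminotransferase gene BCAT1 and the fatty acid carrier gene FABP5 were at 0 in each VprBP sh sample as well.

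Scaffolds of the cytoskeleton and membrane formed the largest role group, with 20 genes and a median of 13.8 CPM per kb. BASP1 had 8994, 11029 and 12562 counts in Control sh against 0 in each VprBP sh sample. FLNC, an actin crosslinker best known from muscle, had 5949, 5379 and 5574 against 0, 0 and 0. ARHGAP42, a GTPase-activating protein, had 3729, 4766 and 5541 against 0, 0 and 0. The caveolar coat genes CAVIN2 and CAVIN3, the tumor suppressor DLC1 and the smooth muscle light chain gene MYL9 were at 0 too. MYL9 shares 94.1% of its residues with MYL12A and 93.5% with MYL12B, which kept 4839 to 6640 and 8229 to 11834 counts in VprBP sh, so that reads common to the 3 genes could be assigned to any of them.

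Genes of transcription and chromatin (19) had a median of 9.16 CPM per kb in Control sh, and 15 of them were at 0 in every VprBP sh sample. BNC1, a zinc finger protein of basal keratinocytes, had 2708, 3111 and 3478 counts in Control sh against 0 in VprBP sh. HMGA2, an architectural chromatin protein of embryonic and tumor cells, had 2527, 3175 and 3625 against 2, 0 and 1. SNAI2, the repressor that drives epithelial to mesenchymal transition, had 1879, 1392 and 1630 against 0, 0 and 0. Regulators that many tissues express were present as well, namely UBN1, a histone H3.3 chaperone subunit, with 2506, 2439 and 2776 counts, GLYR1, a nucleosome-binding factor, with 1275, 1321 and 1608, and TCF12, an E protein, with 1358, 1555 and 1768, and none of them had a count in VprBP sh.

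Of 15 genes of innate sensing and intracellular signalling, IFI16, a nuclear DNA sensor, had 4249, 4304 and 5247 counts in Control sh against 0 in VprBP sh, and CGAS, the cytosolic DNA sensor, had 1482, 1398 and 1573 against 2, 0 and 0. The calcium buffer gene CALB1, the thioredoxin inhibitor TXNIP and the cyclin CCND2 belonged here and were at 0. For CCND2, an overlapping row with an identical stretch of protein kept 18, 39 and 70 counts in VprBP sh and had 172, 143 and 213 in Control sh, so the split of reads between these rows is uncertain. The epithelial junction and differentiation genes numbered 8. PPL, periplakin of the cornified envelope and desmosomes, had 7348, 6907 and 7565 counts and DSG3, a desmosomal cadherin, had 2251, 2410 and 2645, with 0 in each VprBP sh sample for both. The gap junction gene GJA1 and the uroplakin UPK1B were at 0 there as well. Transporters (5, led by the ammonium channel RHCG), the cancer-testis antigens MAGEA10 and MAGEA9B and 5 genes without a settled role made up the rest. MAGEA9B has a copy with an identical protein, MAGEA9, with at most 12 counts in any sample, and the level of either copy is uncertain.

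**Figure D2:**
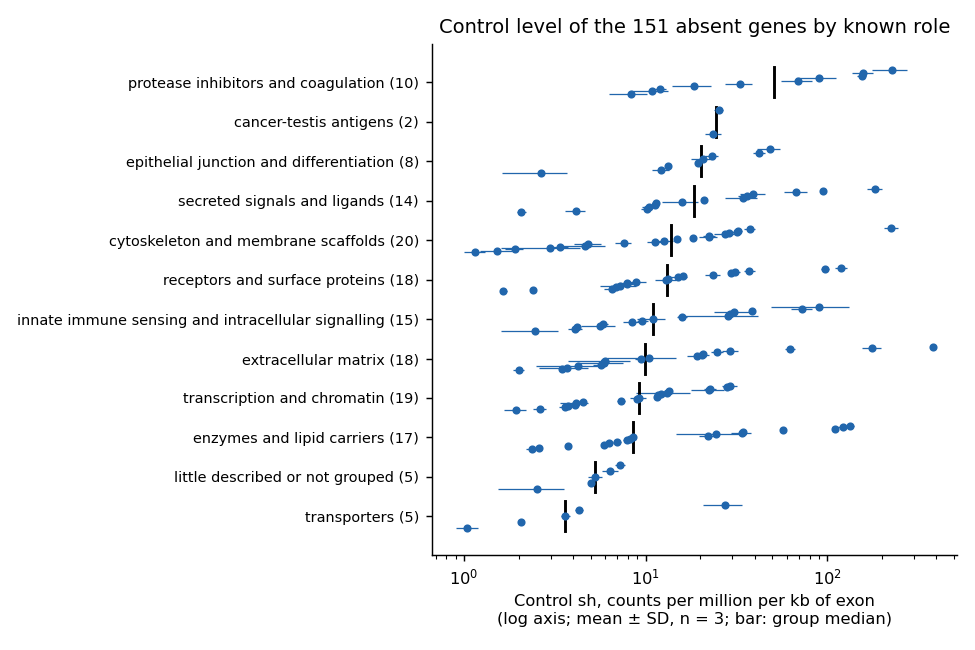
Control sh level in CPM per kb of exon (x axis, log scale) of each of the 151 genes, grouped by known role (y axis, number of genes in parentheses), as the mean with its SD over 3 samples and with a black bar at the median of the group. Protease inhibitors and regulators of coagulation have a median of 51.0 CPM per kb and genes of transcription and chromatin one of 9.16.

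The control samples were not alike for all of these genes. Replicate 1 lay more than 1.5 times above or below the mean of replicates 2 and 3 for 18 genes, which was 11.9% of the 151 and compares with 1.99% of all protein-coding genes at this control level. It was above for 9 genes, among them TXNIP (3277 against 1622 and 1853 counts), G0S2 (2509 against 1251 and 1457), LAMA1 (2053 against 1146 and 1242) and CYP24A1 (2951 against 1650 and 1849). It was below for the other 9, among them DPYSL3 (205 against 588 and 666), MFAP5 (439 against 1092 and 1241), SERPINB3 (2275 against 3831 and 4312) and CALB1 (3375 against 5356 and 6166). None of the 151 genes differed by that factor between replicates 2 and 3. In every one of these cases the lowest Control sh count was still above 200, far from the VprBP sh values.

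The genes were spread over the chromosomes unevenly. Chromosome 18 carried 10 of them, 9.17% of its 109 protein-coding genes at the control level, and chromosome X carried 13 (5.33% of 244) where 1.97% held overall. Chromosome 22 carried none of 198, and the shares were 0.787% on chromosome 17 and 0.823% on chromosome 19. Of the 10 genes on chromosome 18, 5 were the SERPINB genes, and the others were DSG3, LAMA1, CCBE1, MAPRE2 and FHOD3. Another gene of the 151 started within 1 Mb for 30 genes and within 500 kb for 24. Of the 30, 6 lay in the block on chromosome 16 described next and 5 were the SERPINB genes. The same count was not made for other genes at the control level, so no general clustering is read from it.

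The most extended block lay on chromosome 16 (hg38), where 11 protein-coding rows in succession had 0 counts in every VprBP sh sample, from the start of CDIP1 at 4510669 to the end of PPL at 4960741, a span of 450 kb. Of these rows 6 were among the 151 genes: UBALD1 (451, 469 and 638 counts in Control sh), the ubiquitin ligase gene MGRN1 (883, 878 and 1103), ROGDI (422, 489 and 510), GLYR1, UBN1 and PPL. The remaining rows, CDIP1, NUDT16L1, ANKS3, DNAAF8 and ZNF500, were named after their values had been seen and had 0.147 to 12.7 CPM in Control sh. They belong to different protein families, and none of the 11 had a count after knockdown.

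Both flanks of the block changed as well, each in its own direction. HMOX2, a constitutive heme oxygenase whose deposited end lies within 1 kb of the block, had 960, 962 and 1130 counts in Control sh against 38, 42 and 72 in VprBP sh, a log2 fold change of -4.49 (SE 0.14). SEC14L5, a lipid-transfer family gene whose first bases lie inside the deposited span of PPL, had 5, 3 and 6 counts in Control sh against 301, 279 and 375 in VprBP sh, a log2 fold change of 5.91 (SE 0.24). Edge genes of the block thus kept transcripts in VprBP sh on both sides. Further out, DNAJA3 (1214, 1354 and 1588 counts against 1475, 1464 and 2108) and NAGPA (194, 307 and 288 against 201, 313 and 458) were not called. Beyond them calls occurred again in both directions, with CORO7 lower (914, 814 and 954 counts against 221, 272 and 410, log2 fold change -1.75), VASN, which overlaps it in the deposited coordinates, higher (338, 298 and 320 against 731, 1849 and 2298, 2.15) and, on the other side, EEF2KMT higher (6.93 ± 0.35 against 19.3 ± 0.7 CPM, 1.26). The row for the CORO7-PAM16 readthrough was also called lower (-1.89).

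**Figure D3:**
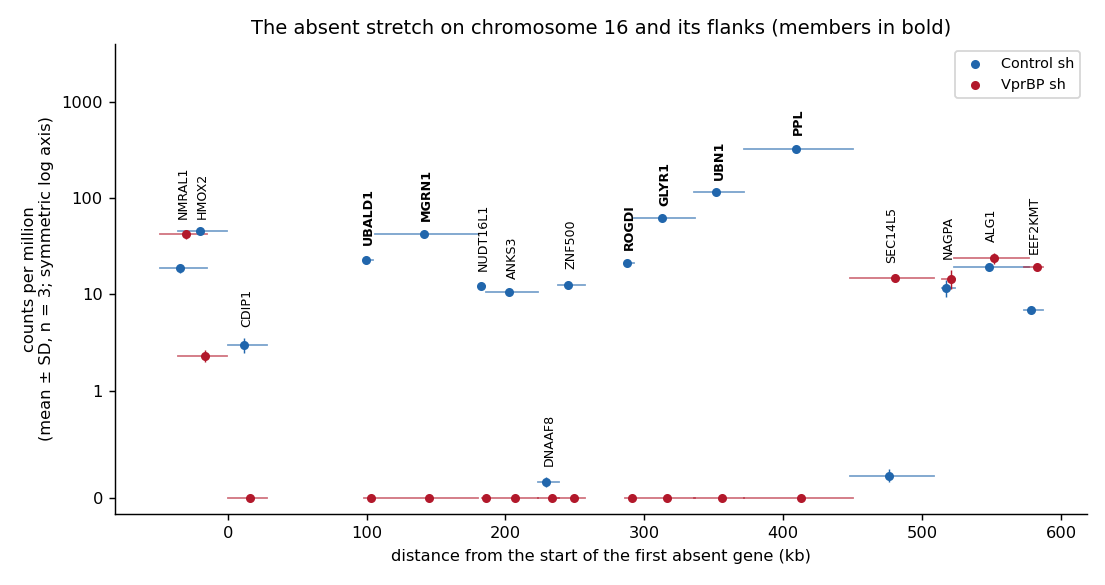
Mean level with SD over 3 samples (y axis, CPM, symmetric log scale) of each protein-coding gene in the block on chromosome 16 and beside it, against the distance from the start of CDIP1 in kb; horizontal lines span each gene, Control sh is blue, VprBP sh red, and the 6 members are in bold. From CDIP1 to PPL every VprBP sh value is 0, while HMOX2 to the left falls to 2.30 and SEC14L5 to the right rises to 14.9 CPM.

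Elsewhere, runs of related genes that held abundant members had few or no counts in VprBP sh. In the HOXD cluster on chromosome 2, HOXD10, a homeobox factor of posterior body patterning, had 614, 609 and 742 counts in Control sh, and all 10 protein-coding rows of the run, EVX2 to HOXD1 over 113 kb, were at 0 in each VprBP sh sample. Next to this run, LNPK (798, 786 and 894 against 796, 819 and 1081) and MTX2 (760, 860 and 1029 against 756, 757 and 949) were not called. In the SERPINB cluster on chromosome 18, 7 rows in succession had at most 2 counts per VprBP sh sample over 395 kb, and the flanking SERPINB5, which encodes maspin, had 2523, 2942 and 3522 counts against 54, 37 and 58. The run therefore ended in a gene that fell without vanishing on that side, and SERPINB8 on the other side (327, 489 and 551 against 39, 58 and 97) did the same.

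On chromosome X, TCEAL8, TCEAL9 and BEX3, small adaptor-like proteins of a mammalian gene cluster, lay in a run of 6 rows with BEX4, BEX2 and RAB40A, and the neighbouring TCEAL4 had 605, 737 and 899 counts in Control sh against 2104, 1941 and 2843 in VprBP sh. The family was thus not moved as a whole, and the log2 fold change of TCEAL4 was 1.47. ARMCX3 lay in a run with ARMCX4, ARMCX1, ARMCX6 and ARMCX2, beside HNRNPH2 with 838, 1222 and 1326 counts in Control sh against 2631, 2204 and 3193 in VprBP sh. On chromosome 2, IL1A and IL1B lay in a run of 6 rows with IL37, IL36G, IL36RN and IL1F10, and the receptor antagonist gene IL1RN beside it had 350, 273 and 342 counts against 41, 99 and 135. CNTN5 and ARHGAP42 on chromosome 11 were next to each other and to PGR, the progesterone receptor gene, and TRPC6, a run of 4 rows at 0 over 2852 kb.

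LDHB and THBD were abundant genes among scarce neighbours. LDHB lay with SPX, KCNJ8 and ABCC9, each at most 29 counts in a Control sh sample, between GOLT1B (1170, 1203 and 1282 against 679, 608 and 760) and CMAS (1191, 1161 and 1450 against 1054, 1166 and 1448). The 4 genes of that run were at 0 in each VprBP sh sample while both outer neighbours kept at least 608 counts. THBD lay between FOXA2 and CD93, both at 0 after knockdown. Beyond FOXA2, XRN2 (3622, 3864 and 4485 against 2774, 2497 and 3430) was not called. Beyond CD93, NXT1 (809, 1115 and 1319 against 394, 567 and 684) was called lower, with a log2 fold change of -1.13. HDGFL3 and BNC1 on chromosome 15 were neighbours, as were ZNF618 and COL27A1 on chromosome 9 with KIF12 between them.

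Counted over all 151 genes, 75 stood alone with neither adjacent protein-coding row at most 3 in every VprBP sh sample, and 76 lay in 61 runs of at least 2 such rows. Runs with more than 1 of the 151 genes numbered 7 and held 22 of them. Of the 275 protein-coding rows directly beside one of the genes, 76 (27.6%) were at most 3 in every VprBP sh sample, against 7.04% of the 15174 other protein-coding rows. With at least 2 CPM required in Control sh, the shares were 29 of 212 (13.7%) and 333 of 11785 (2.83%). These are descriptions, and rows beside a gene share its region and, in clusters, its gene family.

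The rule did not use the neighbours, so their calls were read from the fit across all genes. The nearest tested protein-coding gene on each side, other than the 151, gave 274 genes, of which 135 (49.3%) were called lower, 28 (10.2%) higher and 111 not called. Among the 13734 tested protein-coding genes outside the 151, 20.8% were called lower and 23% higher. The median log2 fold change was -0.95 among neighbours and 0.07 among those 13734. Without the genes of the block on chromosome 16, an alternative chosen after the data were seen, 132 of 270 neighbours were lower and 27 higher. The 249 neighbours that overlap none of the 151 genes had 120 lower calls (48.2%) and 27 higher. Among all tested protein-coding genes within 500 kb the share called lower was 30.7% of 915 and the share called higher 17.3%.

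Neighbours that changed included genes of high level. TMEM123 beside MMP7 fell from 5390 ± 303 to 346 CPM (log2 fold change -4.18), and YAP1, the transcriptional coactivator of the Hippo pathway, beside CFAP300 fell from 3296 ± 83 to 303 (-3.65). ITGA3, an integrin subunit that binds laminin, beside PDK2 fell from 1761 ± 58 to 85.9 (-4.57), and LAMB3, a laminin 332 chain, beside G0S2 fell from 1604 ± 305 to 1.53 (-10.34). In the opposite direction, SLC12A2, an ion cotransporter, beside FBN2 rose from 20.8 to 102 CPM (2.09) and CALML5 beside CALML3 from 0.902 to 73.9 (6.15). These genes were picked from the neighbours by level after their values had been seen. The starts of CFAP300 and MMP7 lie 473 kb apart on chromosome 11, so YAP1 and TMEM123 come from a shared region and are not independent examples. CEP126, the flank of the run with CNTN5 and ARHGAP42, lies in that region too and fell from 126 ± 10 to 5.41 CPM (-4.74). The outer flanks of these runs, JRKL and DCUN1D5, were not called.

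Rows that overlap one of the genes give a further view, since a count table without a stated strand rule cannot separate reads of overlapping genes. An overlapping row existed for 51 of the 151 genes. USP47 on the opposite strand of DKK3 kept 1082, 923 and 1288 counts in VprBP sh (1603, 1369 and 1469 in Control sh), POLR2B, an RNA polymerase II subunit gene, opposite IGFBP7 kept 2276, 2282 and 3091 (3158, 3889 and 4314), and STT3A opposite FEZ1 had 7044, 7180 and 10022 (3056, 3182 and 3697). Genes that share bases with DKK3, IGFBP7 and FEZ1 were thus counted in every VprBP sh sample where these 3 had at most 3 counts. In contrast, DUOX1 opposite DUOXA1 (810, 835 and 948 against 0, 5 and 5) and ADAM19 opposite NIPAL4 (403, 200 and 218 against 0, 0 and 0) were near 0 together with their partners. Of 26 overlapping rows outside the 151 with at least 2 CPM in Control sh, 9 were at most 3 in every VprBP sh sample. Among all protein-coding rows outside the 151 at that level the share was 2.83%. The overlapping rows include noncoding ones such as SENCR and CALML3-AS1, for which no such share was computed.

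Relatives of the missing proteins were examined next, because a paralog can carry out a similar reaction. The closest paralog in the table, at 30% identity or more over at least 50% of the longer protein, could be given for 90 of the 151 genes. These came to 75 different tested genes outside the 151, of which 41 (54.7%) were called lower, 13 (17.3%) higher and 21 not called, beside 20.8% lower and 23% higher among the other protein-coding genes. Their median log2 fold change was -1.20. Of the 75, 8 were also nearest neighbours and all 8 were lower, while the other 67 had 33 lower calls (49.3%) and 13 higher.

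Paralogs that were called lower kept different levels in VprBP sh. LDHA, which shares 75.6% of residues with LDHB, fell from 1419 ± 101 to 720 ± 42 CPM (log2 fold change -1.19). Of the other lactate dehydrogenase genes on the list of 6, LDHD, which acts on D-lactate, rose from 0.335 ± 0.318 to 4.78 ± 1.44 CPM (3.63), and LDHC was too low to be tested. A further copy with a protein identical to LDHB is annotated but was not analysed here, and it leaves the LDHB count uncertain. The actin crosslinker FLNA fell from 2966 ± 170 to 1496 ± 240 (-1.20) where FLNC was at 0. CAVIN1 fell from 904 ± 52 to 62.8 ± 4.0 (-4.06) where CAVIN2 was at 0, and the plasminogen activator PLAU fell from 340 ± 30 to 52.3 ± 15.1 (-2.91) beside PLAT. The integrin ITGA2 (partner ITGA1) fell from 372 ± 85 to 13.6 ± 2.3 (-5.00), the lactate transporter SLC16A1 (partner SLC16A7) from 148 ± 4 to 5.25 ± 3.38 (-5.07) and the LIM protein PDLIM1 (partner PDLIM4) from 492 ± 11 to 45.5 ± 7.2 (-3.64). The desmosomal cadherin DSG2 (-2.87, partner DSG3) and GALNT2 (-3.02, partner GALNT18) fell too. HDGF, at 65.3% identity to HDGFL3, had 718 ± 53 against 528 ± 5 and was not called.

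Paralogs that rose were fewer and most of them were scarce in Control sh. GALNT10 (partner GALNT5) rose from 35.7 to 337 CPM (log2 fold change 3.03), HOXC10 (partner HOXD10) from 2.93 to 54.5 (4.01), the coagulation inhibitor TFPI (partner TFPI2) from 7.44 to 78.2 (3.18), and WWC1 (partner WWC2) from 184 to 478 (1.17). WNT7B, with 77.9% identity to WNT7A, passed the 2-fold threshold narrowly, at 1.01. For 13 of the 75 paralogs, then, the relative was higher in VprBP sh while the gene itself was all but uncounted.

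**Figure D4:**
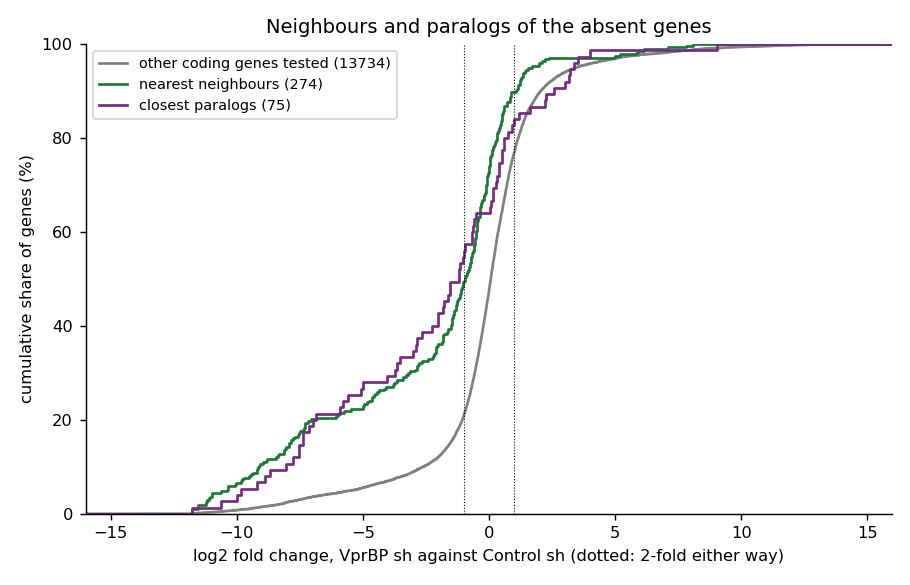
Cumulative share of genes (y axis, %) by log2 fold change of VprBP sh against Control sh (x axis, dotted lines at 2-fold either way) for the 274 nearest neighbours, the 75 closest paralogs and the 13734 other protein-coding genes tested, which include them. At the left dotted line the curves of neighbours and paralogs stand near 50%, where 49.3% and 54.7% were called lower, and that of all others near 21%.

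Families by symbol gave 10 stems with at least 2 of the 151 genes, and their counts are read beside the 20.8% lower and 23% higher among protein-coding genes. Of 31 collagen rows, 5 were among the 151, and of 22 others tested, 15 were called lower and 5 higher. Of 11 SERPINB rows, 5 were among the 151, and of 6 others tested, 4 were lower and none higher. Other stems had more higher than lower calls, as did the protein-coding genes at large. ZNF had 27 of 465 others lower and 175 higher, GALNT 2 of 11 lower and 5 higher, and TCEAL none of 3 lower and all 3 higher. SLC, with 58 of 256 lower and 72 higher, and TMEM, with 35 of 173 lower and 43 higher, lay near the shares of protein-coding genes. The MAGEA stem had 2 of 7 others lower and 2 higher, and the CAVIN stem 1 of 2 lower and 1 higher. Both contactin rows of the table, CNTN1 and CNTN5, belonged to the 151 genes.

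Several lists of related genes were chosen with earlier results of these data known, and each is read against the 20.8% lower and 23% higher among protein-coding genes. Beyond its 8 members among the 151, the extracellular matrix list had 24 of 30 other tested genes lower and 2 higher, with a median log2 fold change of -4.88. Fibronectin, FN1, fell from 1346 ± 98 to 13.2 ± 3.2 CPM. The coagulation list had 4 members among the 151 and 8 of 10 others lower, among them tissue factor, F3, which fell from 791 ± 67 to 24.1 ± 5.7, while TFPI was the 1 gene that was higher. Of the caveolar genes, CAV1 fell from 1069 ± 204 to 10.3 ± 3.6 and CAV2 from 388 ± 42 to 52.5 ± 3.5, while CAVIN4 rose from 0.263 ± 0.114 to 0.957 ± 0.414. Of the secreted cytokines and growth factors, 5 were among the 151, 22 of 38 others were lower and 9 higher, the last led by TNFSF10, which encodes TRAIL and rose from 78.6 ± 11.2 to 225 ± 9. The interferon effectors had no member, 14 of 19 lower and 2 higher, and the keratins and cornified envelope genes had no member, 16 of 26 lower and 5 higher.

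For genes known for promoter methylation in tumors the picture was mixed. Of the 55 list genes in the table, 10 were among the 151: CDH13, DKK3, TFPI2, THBD, NGFR, BASP1, LDHB, CST3, IGFBP7 and SPARC. Of 41 others tested, 16 (39.0%) were lower and 14 (34.1%) higher, with a median log2 fold change of -0.52. GSTP1, the glutathione transferase gene whose promoter is methylated in prostate cancer, fell from 636 ± 42 to 0.422 ± 0.257 CPM, and TIMP3 from 538 ± 21 to 10.2 ± 9.2. CDH1, E-cadherin, had 426 ± 19 against 319 ± 38 and was not called. DNA methylation itself was not measured in these samples.

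The remaining lists had few members. The WNT inhibitor list had DKK3 among the 151 and 1 of 3 others lower and 1 higher. Among cystatins and cathepsins, CST3 was a member and 6 of 14 others were lower and 2 higher, with CTSB falling from 4206 ± 45 to 161 ± 37 CPM. Of the neurotrophins and their receptors, NGFR and BEX3 were members and 5 of 6 others were lower, while the sorting receptor SORT1 rose from 37.1 ± 2.4 to 449 ± 43. Antigen presentation genes (6 of 15 lower, 0 higher), glutathione and oxidant defence genes (9 of 22 lower, 5 higher) and S100 proteins (4 of 14 lower, 4 higher) held none of the 151. For antigen presentation, the other 9 genes were not called in either direction, and the median log2 fold change of the 15 was -0.81. Of the cancer-testis list, MAGEA10 was a member, 3 of 9 others were lower and 1 higher.

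Markers of cell types moved in different directions, and their calls are read beside the 20.8% lower and 23% higher among protein-coding genes. The 12 basal epithelial markers, 3 of them (COL17A1, DSG3 and NGFR) among the 151, summed to 14795 to 15178 CPM in Control sh against 896 to 1076 in VprBP sh, with 7 of the 9 others tested lower. Keratin 14, KRT14, had 62464, 75812 and 86797 counts against 10, 2 and 1. The 12 urothelial markers analysed summed to 3273 to 3388 against 3441 to 5258, with UPK1B among the 151, 2 of 10 others lower and 5 higher. KRT19 rose from 1227 ± 50 to 2861 ± 810 CPM and GATA3 from 0.128 ± 0.183 to 74.7 ± 10.5. Of 11 mesenchymal markers, 9 were analysed, with SNAI2 and SPARC among the 151, and summed to 1631 to 1825 against 34.8 to 46.1. Most of that Control sh sum came from FN1 and from SPARC, so it says little about the other markers. CDH2 and TWIST1 were at 0 in VprBP sh, and of 6 others tested 4 were lower and VIM higher. Marker sums that hold members of the 151 include a fall that the rule had fixed. Of 7 leukocyte and endothelial markers, 4 were analysed and summed to 55.5 to 69.4 against 1.5 to 2.11, with 3 of 4 lower. Neither of the 2 melanocyte markers tested was called. The part of these differences in cell type markers in the absence of the 151 genes was not tested.

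The starts of the 151 genes were CpG-poor more often than those of other genes. In the window of 300 bases at the start of the canonical GENCODE 44 transcript on hg38, the median ratio of observed to expected CpG was 0.68 over the 151 genes, against 0.85 over 13714 other tested protein-coding genes and 0.88 over 7528 others with at least 20 CPM in Control sh. A ratio under 0.6 was found for 56 of the 151 (37.1%), against 16.4% and 8.17%. The median GC content was 65.3% against 66.0% and 67.3%, so that the groups differed less in GC than in CpG. By role, the median was 0.25 for protease inhibitors and coagulation genes, with 7 of 10 under 0.6, and 0.42 for epithelial junction genes, with 6 of 8 under 0.6. It was 0.81 for genes of transcription and chromatin, with 2 of 19 under 0.6.

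**Figure D5:**
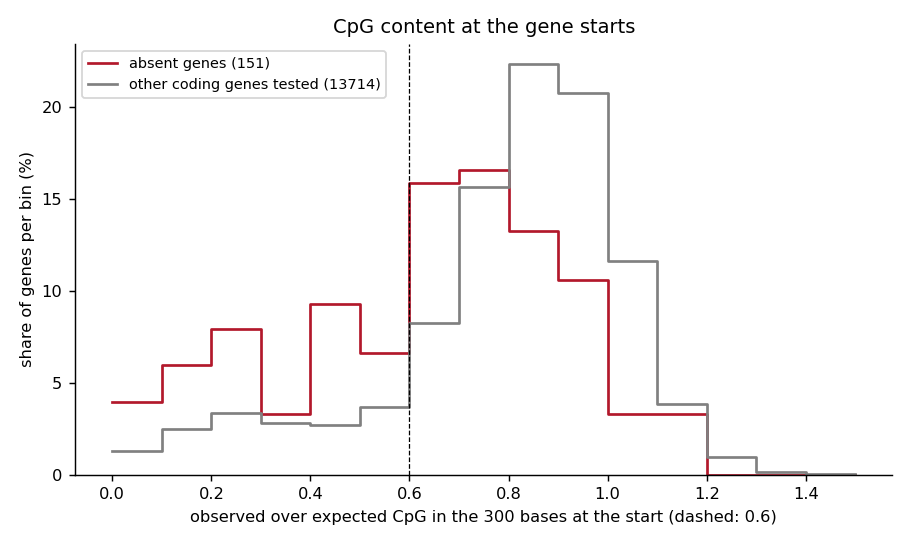
Share of genes (y axis, % per bin of 0.1) by the ratio of observed to expected CpG in 300 bases at the gene start (x axis, dashed line at 0.6) for the 151 genes (red) and 13714 other tested protein-coding genes (grey). The 151 genes are spread over low and high ratios with a median of 0.68, and the others peak between 0.8 and 1 with a median of 0.85.

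Short motifs were searched for on both strands of the same windows. The TATA motif TATAAA was present at 21 of the 151 starts (13.9%), among them that of COL17A1, against 5.55% of the other tested protein-coding genes and 9.71% of all 20046 windows. The AP-1 motif TGANTCA was present at 12 (7.95%) against 4.31% and 5.44%, and the TEAD motif GGAATG at 20 (13.2%) against 10.4% and 11.3%. A match says only that these letters occur in the window.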

How the data were processed

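RNA-seq of 3 Control sh and 3 VprBP sh samples was analysed, grouped by the sample titles. The authors aligned single-end reads to hg38 and quantified genes in Partek. The deposited values are estimated counts (expected counts), neither normalized nor pooled, of which 59.8% are whole numbers (tolerance 1e-09), and every row sums to at least 10. The labels name a SMARTER kit and the methods a strand-specific KAPA kit, and the strand setting of the counting is not given in the sources used here. Fixed plans assumed raw counts, so values were rounded.

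The 151 genes and all lists were chosen with earlier results of these data known, and roles were assigned by hand once the genes were known. The text names the targeted gene, the 25 most abundant of the 151, those in lists, families or near one another, up to 4 more per role, the abundant paralogs, the flanks of runs and up to 4 list genes by level, while further names were chosen after values were seen.

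edgeR 4.0.16 (R 4.3.3, quasi-likelihood test, upper quartile factors, quantile 0.75, minimum count 10) tested 16756 genes, with Benjamini-Hochberg adjustment. It stands in for the Gene Specific Algorithm. TMM factors, library size alone, DESeq2 1.42.0, no filter, a replicate block and leaving out each replicate were alternatives. The fit was tested on simulated data. Folds against 0 use 3 counts per library. Ratios of pooled counts carry exact 95% binomial intervals. Both cover counting error only, and reads were not counted by molecular identifiers. Proteins from GENCODE 44 were compared with BLAST 2.17.0 (e-value 1e-05). Starts in the table matched GENCODE 44 for all 151 genes. The study names GENCODE 29. A few items are not reported here.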

Additional observations from a re-analysis of the deposited data

How the results depend on the processing

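The number of genes chosen depended on the rule: 100 at 0 in every VprBP sh sample, 232 at 10 CPM and 79 at 50, while a largest value of 10, all gene types or upper quartile scaling gave 158 to 197, and leaving out a replicate gave 150 to 160. The wider or narrower sets of the report gave 281 lower and 158 higher calls among genes within 500 kb, and 20 lower and 6 higher among paralogs of at least 50% identity. The promoter CpG median lay -0.16 from all tested genes and -0.20 from genes with at least 20 CPM. All 151 genes were called lower in each fit run, from which nothing is read because the same contrast chose the genes. Across fits the neighbours had 124 to 140 lower calls and the paralogs 37 to 45. DCAF1 passed an adjusted p of 0.05 except with library size alone (log2 fold change -0.37, adjusted p = 0.0851). Leaving out a replicate gave -0.82 to -0.46. That scaling moved the median over all tested genes from a log2 fold change of 0.08 to 0.29. The share of higher calls was 52.7%, and 47.7% to 60.1% across DESeq2, TMM factors and library size alone. The sample titles state no pairing by replicate number. Deviations with the same number correlated at -0.25, -0.11 and -0.22, which cannot settle whether such samples were prepared together. The replicate block gave 7686 calls in place of 7778. Depth limits the level of a gene at 0 to 3 counts, or 0.112 to 0.165 CPM.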

Other observations

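Outside the protein-coding rows, 7 further rows met the same 2 conditions, at most 3 counts in each VprBP sh sample and at least 20 CPM in Control sh, and 6 of them are annotated as long noncoding RNAs. LINC01239 had 1273, 1394 and 1643 counts in Control sh against 1, 0 and 0 in VprBP sh. CALML3-AS1, on the opposite strand of CALML3, had 1448, 858 and 941 against 2, 1 and 2, and reads of the pair cannot be told apart without strand. LINC02582 (527, 681 and 781) and LINC02864 (369, 489 and 592), both on chromosome 18, and LINC01322 (558, 454 and 524) were at 0 in each VprBP sh sample. The remaining row was KRT16P6, a keratin pseudogene, with 759, 1259 and 1521 counts against 0, 0 and 0. Its reads can come from expressed keratin genes of near-identical sequence.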
